A study of Mus musculus with 12 samples.

Results

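The proteasome is the protease complex that degrades proteins tagged with ubiquitin, and its constitutive subunit genes were followed here in the livers of control and penicillin-treated mice. The members were all genes whose symbol begins with Psma, Psmb, Psmc, Psmd or Psme and a digit, taken from probesets to which the array's annotation gives a single gene. The inducible subunits Psmb8, Psmb9 and Psmb10 and the inducible activator genes Psme1 and Psme2 were left out by that rule. It found 40 genes on 86 probesets, of 18193 genes with a probeset of their own. Each gene was read from its brightest probeset, and 38 of the 40 were bright enough on average to enter the test, which ran over 11899 genes.

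Liver RNA came from 12 male C57BL/6 mice, with 1 array per mouse. The 6 control mice had no antibiotic, and the 6 penicillin mice drank water with a low dose of penicillin, begun after weaning. All livers were taken after 7 weeks of intervention. The sources used here state neither the dose nor the hour of collection nor the cages, so the p-values measure the spread between these mice as if each were independent. Values are array intensities on the log2 scale, on which a difference of 1 is a doubling. Because whole liver was measured, fewer cells of a type and less RNA per cell cannot be told apart.

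The 26S proteasome joins a barrel, the 20S core, to a regulatory cap, the 19S particle. The barrel has outer rings of alpha subunits, which gate its entrance, and inner rings of beta subunits, of which Psmb5, Psmb6 and Psmb7 cut the protein chain. The cap has a base, where a ring of ATPases unfolds the substrate, and a lid, where the enzyme Psmd14 removes the ubiquitin chain. Cells under interferon signalling replace the catalytic beta subunits by the inducible ones, and cells short of proteasome capacity raise the subunit genes together through the transcription factor NRF1, encoded by Nfe2l1. Hspa8, the constitutive chaperone of the Hsp70 family, was read beside the members on every array: chaperones refold damaged proteins that proteasomes would otherwise degrade.

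The 40 genes were 8 alpha subunits, 3 catalytic beta subunits, 5 other beta subunits, 6 ATPases of the base, 3 other base subunits, 8 lid subunits, 3 assembly chaperones (Psmd5, Psmd9 and Psmd10, which help to build the base and are not part of the finished particle) and 2 activators (Psme3 and Psme4, which cap the barrel in place of the 19S particle). The other 2, Psmc3ip and Psme3ip1, carry a matching symbol and are not subunits: Psmc3ip encodes a meiotic recombination factor and Psme3ip1 a protein named for its interaction with Psme3. The 2 genes below the filter were Psma8 and Psmb11, which form the testis and the thymus form of the barrel. Psma8 had a mean of 4.52 ± 0.34 in control and 4.72 ± 0.45 in penicillin livers, and Psmb11 3.89 ± 0.06 and 3.83 ± 0.11 (SD, n = 6 each). A level that low cannot be told from background on these arrays. Psme2 and the 19S ubiquitin receptor gene Adrm1 were not read from a probeset of their own and were not analysed here.

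Upstream sequence is shown for 5 of the genes the results turn on: the catalytic genes Psmb5 and Psmb6, whose levels correlated over the arrays, and the 19S genes Psmd14, which came nearest to the threshold, Psmd11, which had the largest SD, and Psmd4, on which control 6 stood apart. Each run is the 250 bases before the annotated start, 5′ to 3′ on the gene's strand, from RefSeq on GRCm38.p6. Capitals mark matches on either strand to any of 5 motifs: TGACNNNGC, the core of the antioxidant response element that NRF1 binds; CCAAT, the CCAAT box; GAANNTTC and TTCNNGAA, paired units of the heat shock element; and CCGGAAG, an ETS factor site. Neighbouring matches can run into each other.
Psmb5: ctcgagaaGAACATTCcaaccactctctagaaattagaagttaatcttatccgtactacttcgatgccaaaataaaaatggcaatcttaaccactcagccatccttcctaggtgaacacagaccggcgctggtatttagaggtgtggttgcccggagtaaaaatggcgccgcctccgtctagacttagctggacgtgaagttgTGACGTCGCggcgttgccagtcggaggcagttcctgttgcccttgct
Psmb6: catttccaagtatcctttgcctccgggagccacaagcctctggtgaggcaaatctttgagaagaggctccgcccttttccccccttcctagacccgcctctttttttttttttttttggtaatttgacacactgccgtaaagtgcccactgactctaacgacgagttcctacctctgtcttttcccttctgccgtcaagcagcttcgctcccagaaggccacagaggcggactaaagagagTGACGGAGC
Psmd14: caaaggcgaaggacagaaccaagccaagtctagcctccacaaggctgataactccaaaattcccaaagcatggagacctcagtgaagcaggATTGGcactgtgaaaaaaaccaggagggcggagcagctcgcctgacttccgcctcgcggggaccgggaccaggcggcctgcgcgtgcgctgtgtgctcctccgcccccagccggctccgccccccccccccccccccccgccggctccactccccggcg
Psmd11: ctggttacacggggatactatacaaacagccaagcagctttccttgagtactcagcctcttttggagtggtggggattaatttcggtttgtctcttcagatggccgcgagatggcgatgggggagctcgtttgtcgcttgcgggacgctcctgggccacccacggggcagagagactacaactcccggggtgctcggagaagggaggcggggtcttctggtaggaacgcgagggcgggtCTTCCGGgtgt
Psmd4: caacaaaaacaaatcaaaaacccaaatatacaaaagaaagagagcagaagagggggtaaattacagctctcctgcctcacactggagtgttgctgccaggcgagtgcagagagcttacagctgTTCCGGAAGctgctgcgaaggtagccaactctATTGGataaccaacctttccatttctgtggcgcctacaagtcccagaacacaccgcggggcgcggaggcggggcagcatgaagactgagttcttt
The Psmb5 run is chr14:54617996-54618245 on the minus strand, the Psmb6 run chr11:70525107-70525356 on the plus strand, the Psmd14 run chr2:61711444-61711693 on the plus strand, the Psmd11 run chr11:80428365-80428614 on the plus strand and the Psmd4 run chr3:95042615-95042864 on the minus strand. Psmb5 held TGACGTCGC starting 47 bases before the start and Psmb6 held TGACGGAGC starting 9 bases before it, both fitting the antioxidant response element core. Psmd11 and Psmd4 held the ETS motif, 11 and 125 bases before their starts, and the match in Psmd4 overlapped one to TTCNNGAA.

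RefSeq windows of 300 bases, 250 before and 50 after the start, were found for 33 of the 40 genes (36 windows). Of these windows 77.8% were CpG-rich (observed over expected CpG above 0.6), against 35.8% of all 32851 windows. The antioxidant response element core was in 6 of 36 member windows (16.7%), those of Psmb5, Psmb6, Psmc6, Psmd9, Psmd12 and Psme4. It was in 12.4% of all windows and 14.6% of CpG-rich ones. The CCAAT box was in 15 member windows (41.7%, against 37.4% of all windows and 35.7% of CpG-rich ones). The paired heat shock units were in 1 and 2 member windows (2.78% and 5.56%). They were in 7.86% and 8.52% of all windows and in 5.17% and 6.01% of CpG-rich ones. The ETS motif was in 15 member windows (41.7%), against 8.86% of all windows and 18.7% of CpG-rich ones. It stood in 10 of 15 windows of 19S genes and 1 of 12 of 20S genes. It was singled out after 14 motifs had been searched on both strands. For the other motifs the shares of member, all and CpG-rich windows are given in that order. The TATA box TATAAA was in 8.33%, 13.6% and 5.99%, and the GC box GGGGCGG in 22.2%, 23.2% and 49.3%. The E-box CACGTG was in 11.1%, 7.15% and 11.3%. The YY1 site AAGATGGC was in 8.33%, 2.75% and 4.85%, and the MAF site TGCTGAG in 8.33%, 7.84% and 5.44%. The site of nuclear respiratory factor, a protein unrelated to the NRF1 of Nfe2l1, was in 2.78%, 0.971% and 2.45%. The full antioxidant response element TGACTCAGC, the cyclic AMP response element TGACGTCA and 3 joined heat shock units were in 0 member windows. They were in 0.454%, 1.79% and 0.603% of all windows and in 0.255%, 3.66% and 0.417% of CpG-rich ones. A match describes letters in a window, not a site in use.

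Arrays stood apart in this set in ways the groups do not name, and the values without them are given below for the counts and for the genes they moved most. Controls 1, 3 and 5 were high in immediate early genes, with a mean deviation over 14 such genes of 2.20, 2.21 and 1.41, against -0.88 to -0.33 on the other 9 arrays. The same 3 were high in 13 heat shock genes (1.05, 1.11 and 0.73, against -0.73 to 0.15 on the others). Control 6 and penicillin 1, 5 and 6 were set apart by clock genes: Dbp, a clock output gene, lay 2.19 to 2.28 above its mean on those 4 arrays and at most 0.92 above it on the others. The mean of the 8 hepatocyte markers moved little (deviation -0.12 to 0.08). Of these markers Tat ran from 12.21 on penicillin 5 to 13.60 on penicillin 1. The neutrophil markers, 2 genes, ranged from -0.32 to 2.28 in control and from -1.69 to -0.51 in penicillin livers. Some genes also split by replicate number. Psmb7 and Psmb3 were higher on each of replicates 1, 2 and 3 than on 4, 5 and 6 in both groups, and the cause was not tested.

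No constitutive proteasome gene differed between penicillin and control livers beyond the spread of the mice. With limma, 0 of 38 members passed an adjusted p of 0.05 (smallest 0.676) and 0 had an unadjusted p under 0.05. Over all 11899 genes, 0 passed (percent called 0), and 7.98% had an unadjusted p under 0.05. In none of the 38 did the groups separate without overlap, which 0.412% of all genes did. The differences ran from -0.07 (Psme3ip1) to 0.14 (Psmc4) with a median of 0.02, and the median over all genes was 0.01. The members' median was 0.0058 without penicillin 3 and 0.039 without penicillin 6, the lowest and highest with 1 array left out. The intervals bound the size: all 38 lay within 0.5 of 0 on the log2 scale, as did 88.2% of all genes, and 33 lay within 0.25. The widest bounds were -0.22 for Psmd11 and 0.33 for Psmc4, which are 0.861-fold and 1.25-fold.

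**Figure D1:**
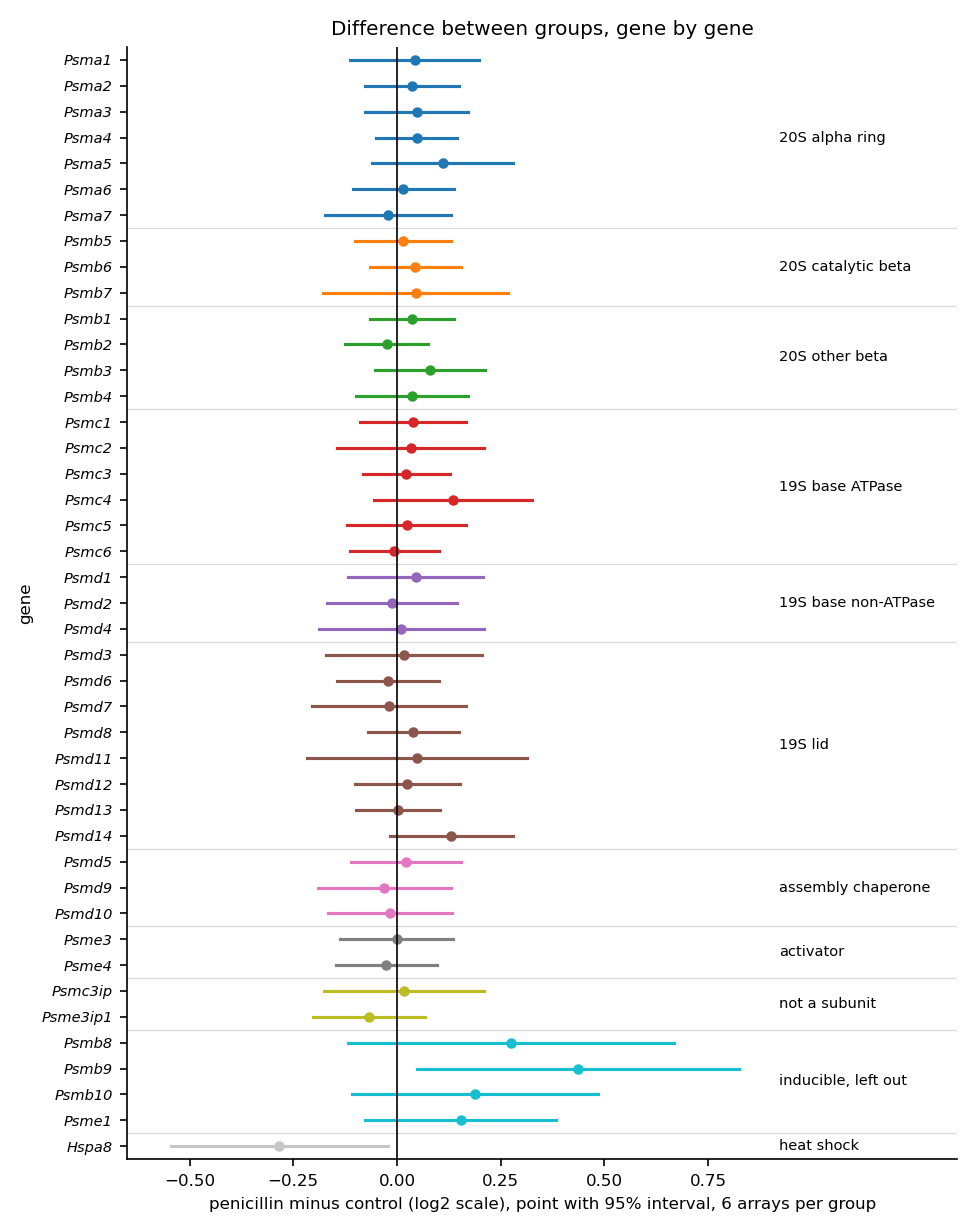
Penicillin minus control on the log2 scale for the 38 tested members, the 4 inducible genes left out and Hspa8, each point with its 95% interval from limma (6 arrays per group). The constitutive members sit between -0.07 and 0.14, while Psmb9 stands at 0.44 and Hspa8 at -0.28.

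The sign leaned one way. Of the 38 members, 27 (71.1%) were above 0, against 52.8% of all genes tested. Members measured on the same 12 arrays are not independent of each other, so the count describes these livers. It was 29 without controls 1, 3 and 5 (46.9% of all genes above 0), 31 without control 6 and penicillin 1, 5 and 6 (55.1%) and 24 with array weights (55.1%). By role, 6 of 7 alpha, 3 of 3 catalytic, 3 of 4 other beta, 5 of 6 ATPase, 2 of 3 other base and 6 of 8 lid genes were above 0, against 1 of 3 chaperones and 0 of 2 activators. The role medians lay between -0.02 for the chaperones and 0.04 for the alpha, catalytic and other beta genes.

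The 3 catalytic genes differed by 0.01 to 0.05 between the groups. Psmb5, which cuts after hydrophobic residues, had its lowest, median and highest level at 11.34, 11.41 and 11.53 in control and at 11.33, 11.44 and 11.53 in penicillin livers. The groups overlapped over almost their whole range, and the difference was 0.01 (SE 0.05, 95% interval -0.10 to 0.13). Psmb6, which cuts after acidic residues, stood at 11.25, 11.35 and 11.47 against 11.34, 11.38 and 11.44. The penicillin arrays lay inside the control range, with a difference of 0.04 (SE 0.05). Psmb7, which cuts after basic residues, was the most variable catalytic gene, with 10.06, 10.25 and 10.48 in control and 10.02, 10.29 and 10.56 in penicillin livers. Penicillin 1, 2 and 3 were at 10.56, 10.43 and 10.50, and penicillin 4, 5 and 6 at 10.02, 10.16 and 10.13. The controls split by the same replicate numbers. Controls 1, 2 and 3 were at 10.33, 10.29 and 10.48, and controls 4, 5 and 6 at 10.14, 10.21 and 10.06. The cause of this shared split was not tested. The group means differed by 0.05 (SE 0.10, adjusted p = 0.945 with limma).

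**Figure D2:**
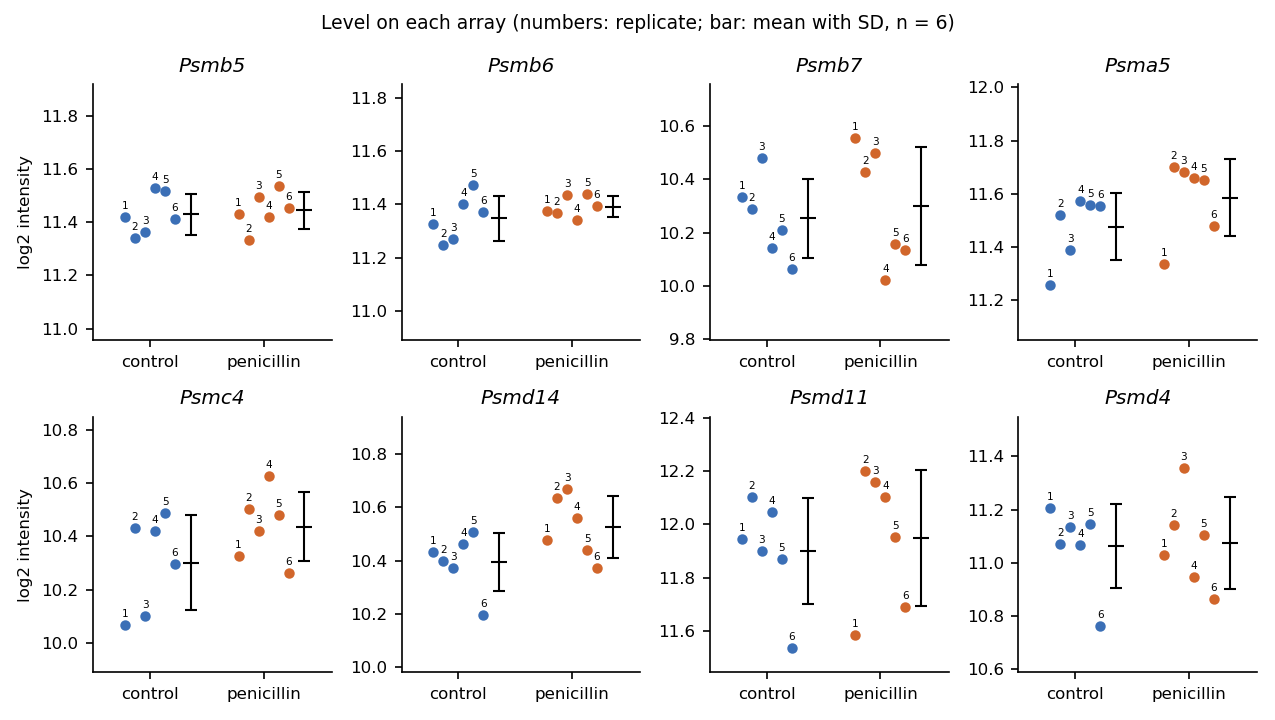
Log2 intensity of 8 proteasome genes on each array, control in blue and penicillin in orange, with the replicate number above each point and the group mean with SD (n = 6) at the side. Every panel spans the same log2 range about the gene's own mean; groups overlap in all 8, and control 6 is the lowest control for Psmb7, Psmd14, Psmd11 and Psmd4.

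In the alpha ring, which forms the gate of the barrel, Psma5 had the largest difference. Its 6 control levels were 11.26, 11.52, 11.39, 11.57, 11.56 and 11.55, and its 6 penicillin levels 11.34, 11.70, 11.68, 11.66, 11.65 and 11.48. Penicillin 2 to 5 were above every control, but penicillin 1 and 6 were not, and the difference of 0.11 (SE 0.08, 95% interval -0.06 to 0.28) did not pass (adjusted p = 0.772, limma). It was 0.04 (SE 0.09) without controls 1, 3 and 5, and 0.04 (SE 0.05) with the mean of all Psma5 probesets. That mean includes a probeset below the filter (mean 3.74, difference -0.07), and the next brightest Psma5 probeset gave 0.09. Psma4 was the steadiest of the ring, at 11.72 to 11.84 in control and 11.81 to 11.89 in penicillin livers, with a difference of 0.05 (SE 0.04). Psma1, Psma2 and Psma3 differed by 0.04, 0.04 and 0.05, Psma6 by 0.02 and Psma7 by -0.02.

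Among the other beta subunits, structural members of the inner rings, Psmb3 stood at 11.31, 11.48 and 11.60 (lowest, median and highest) in control and 11.43, 11.53 and 11.67 in penicillin livers. The groups overlapped, with a difference of 0.08 (SE 0.06, adjusted p = 0.797). Psmb1 differed by 0.04 (SE 0.05): 5 of 6 controls were at or below 11.42, and its penicillin arrays ranged from 11.36 to 11.44. Psmb4 differed by 0.04 and Psmb2 by -0.03.

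In the base of the cap, the ATPase gene Psmc4 had the largest difference of all members. Its controls were at 10.07, 10.43, 10.10, 10.42, 10.49 and 10.29, and its penicillin arrays at 10.32, 10.50, 10.42, 10.63, 10.48 and 10.26. Controls 1 and 3 set the low end of the control group, and the other 4 controls lay within the penicillin range. The means were 10.30 ± 0.18 and 10.44 ± 0.13, a difference of 0.14 (SE 0.09, 95% interval -0.05 to 0.33, adjusted p = 0.748). Without controls 1, 3 and 5 it was 0.05 (adjusted p = 0.996), and a second Psmc4 probeset gave 0.12. The other ATPases lay between -0.01 (Psmc6) and 0.04 (Psmc1). Of the other base genes, Psmd1, a scaffold, differed by 0.04 (SE 0.08), and Psmd2, also a scaffold, by -0.01 (SE 0.07). Psmd4, a ubiquitin receptor, differed by 0.01 (SE 0.09).

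In the lid, Psmd14, the deubiquitinase, came nearest to the threshold of all members. Its controls were at 10.43, 10.40, 10.37, 10.46, 10.51 and 10.19, and its penicillin arrays at 10.48, 10.64, 10.67, 10.56, 10.44 and 10.37. Penicillin 2, 3 and 4 were above every control, and the other 3 were among them. The difference was 0.13 (SE 0.07, 95% interval -0.02 to 0.28, unadjusted p = 0.0798, adjusted p = 0.676, limma). Psmd11, a lid scaffold, ranged from 11.54 to 12.10 in control and from 11.59 to 12.20 in penicillin livers, the widest range of any subunit, and differed by 0.05 (SE 0.12). The other 6 lid genes lay between -0.02 (Psmd6 and Psmd7) and 0.04 (Psmd8).

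Without control 6 and penicillin 1, 5 and 6, the arrays set apart by clock genes, 3 members had an unadjusted p under 0.05 and 0 passed. These were Psmd14 (difference 0.19, adjusted p = 0.641), Psma5 (0.22, adjusted p = 0.667) and Psmd11 (0.18, adjusted p = 0.682). Without penicillin 1 alone Psma5 stood at 0.16 (adjusted p = 0.610), and without penicillin 6 alone Psmd14 stood at 0.16 (adjusted p = 0.752). Without controls 1, 3 and 5 the largest difference was that of Psmd14, at 0.17, and 0 members had an unadjusted p under 0.05. These arrays were removed with their values known, and their part in the result was not tested further.

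The assembly chaperones and activators were the roles with medians below 0. Psmd9 was at 9.06, 9.31 and 9.38 in control and 9.12, 9.20 and 9.47 in penicillin livers, a difference of -0.03 (SE 0.07). Psmd10, also known as gankyrin, differed by -0.02 and Psmd5 by 0.02. Psme3, the nuclear activator, differed by less than 0.01 (fitted value -0.0011), and its sign turned under several settings. Psme4, the activator for acetylated histones, differed by -0.03 (SE 0.06). None of the 5 came near the threshold, with a smallest adjusted p of 0.944.

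The inducible genes that the rule leaves out had larger differences with larger errors, and none passed. Psmb9 was at 8.37, 9.08, 8.28, 8.74, 8.55 and 9.20 in control and 8.90, 8.95, 8.73, 9.43, 9.43 and 9.39 in penicillin livers. Penicillin 4, 5 and 6 were above every control and the other 3 were not, and the difference was 0.44 (SE 0.18, unadjusted p = 0.0304, adjusted p = 0.592). Psmb8, Psmb10 and Psme1 differed by 0.27 (SE 0.18), 0.19 (SE 0.14) and 0.15 (SE 0.11). Controls 1 and 3 were low for this list, with mean deviations of -0.44 and -0.46, and control 6 was high, at 0.38. Without controls 1, 3 and 5 the difference of Psmb9 was 0.13 (SE 0.18, adjusted p = 0.996), and those of Psmb8, Psmb10 and Psme1 were -0.05, -0.03 and -0.01. With Hspa8 as a covariate that of Psmb9 was 0.12 (SE 0.16). Without control 6 and penicillin 1, 5 and 6 it was 0.43 (SE 0.21). The median SD over the 12 arrays was 0.32 for the 4 inducible genes and 0.096 for the 38 constitutive members, both as a description.

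The wider pathway gave no call either. Of 13 other proteasome parts and assembly factors, 0 passed, with 8 above 0 and 5 below. Usp14, a deubiquitinase of the cap, differed by 0.12 (SE 0.07), Psmg4, an assembly chaperone of the barrel, by 0.11 (SE 0.07), and Pomp, the maturation factor of the barrel, by 0.04 (SE 0.05). Of 10 genes of substrate delivery, 3 were above 0 and 7 below, and 0 passed. Zfand2a, a heat-inducible proteasome-binding gene, differed by -0.52 (SE 0.29) and by 0.10 without controls 1, 3 and 5, and Ubqln1, a ubiquitin shuttle, by -0.11 (SE 0.07).

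In the list for the control of NRF1, 8 genes, 2 were above 0 and 6 below, and 0 passed. Nfe2l1 itself stood at 8.06, 8.12 and 8.26 in control and 7.99, 8.08 and 8.23 in penicillin livers, a difference of -0.03 (SE 0.06). Syvn1, the ubiquitin ligase of the endoplasmic reticulum that turns NRF1 over, differed by -0.77 (SE 0.22, unadjusted p = 0.00392, adjusted p = 0.479), and its partner Sel1l by -0.30 (SE 0.11, adjusted p = 0.570). Without controls 1, 3 and 5 they differed by -0.37 (SE 0.20) and -0.18 (SE 0.14), both with an adjusted p of 0.996, and with Hspa8 as a covariate by -0.39 and -0.13. Without control 6 and penicillin 1, 5 and 6 they differed by -0.52 and -0.18. Controls 1 and 3, high in heat shock genes, were also high in the mean of this list, at 0.49 and 0.43. The genes shared in this unevenly. On these 2 arrays Maff was at 8.23 and 8.30 against its mean of 6.58, and Nfe2l1 at 8.26 and 8.09 against 8.11.

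Hspa8 was compared over the arrays next. Its level was 13.19, 12.74, 13.32, 12.99, 13.40 and 13.09 in control and 13.10, 12.73, 13.09, 12.75, 12.79 and 12.58 in penicillin livers. The groups overlapped, with a difference of -0.28 (SE 0.12, unadjusted p = 0.0354, adjusted p = 0.594, limma). Without controls 1, 3 and 5 it was -0.10 (SE 0.13, adjusted p = 0.996), and without control 6 and penicillin 1, 5 and 6 it was -0.27 (SE 0.16). All 13 tested heat shock genes lay below 0 over the 12 arrays, and 0 passed. Hspa1b, an inducible Hsp70 gene, stood at -1.41 over the 12 arrays and at -0.36 without controls 1, 3 and 5, and Hsph1 at -1.08 and -0.31. The largest gap between neighbouring arrays was 0.20, or 24.1% of the range of 0.83, so the arrays were taken as 1 series. The other 3 Hspa8 probesets correlated with the brightest at 0.94, 0.96 and 0.56 and differed between groups by -0.56, -0.44 and -0.96. The mean of all Hspa8 probesets differed by -0.56 (SE 0.16, unadjusted p = 0.00421, adjusted p = 0.433).

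No proteasome gene passed the test of a relation to Hspa8. In a limma fit of each gene on the Hspa8 level with group in the model, 0 of 38 members passed (smallest adjusted p = 0.269), and 1 had an unadjusted p under 0.05. Over all genes 11 of 11898 passed (0.0925%), and 15.4% had an unadjusted p under 0.05. Of the members, 25 of 38 slopes were above 0, against 42% of all genes. The median slope, in log2 units per log2 unit of Hspa8, was 0.05 over the members and -0.06 over all genes. That median was not stable: it was 0.02 without control 2, 0.10 without penicillin 1, 0.0055 without penicillin 3 and 0.02 without penicillin 6, and between -0.01 and 0.12 under the other settings tried. For comparison, Hsph1, an Hsp110 chaperone, had a slope of 3.51 (SE 0.46, adjusted p = 0.0169). The count over all genes was not stable either. It was 0 without control 2, control 3, penicillin 1 or penicillin 3, each left out alone. The count was also 0 without controls 1, 3 and 5 together, and without control 6 and penicillin 1, 5 and 6 together. The same held with the replicate number as a block, within either group and with the dimmest Hspa8 probeset. The count was 27 without control 5 or without penicillin 6, and higher still without the group term. It was also higher with the next brightest Hspa8 probeset and with the other heat shock genes in place of Hspa8. In a permutation test of Pearson's r over the 12 arrays 0 genes passed, and Hsph1 had an adjusted p of 0.072.

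The roles differed in sign. Of the 7 alpha slopes 6 were below 0, with a median of -0.15, and all 3 catalytic and all 4 other beta slopes were above 0, with medians of 0.12 and 0.08. Over all genes 42% of slopes were above 0. The difference between the roles was not tested. With the replicate number as a block, Psma7 turned to 0.26, Psmb5 to -0.047 and Psmb3 to -0.038. Psma6, an alpha subunit, had the smallest p: its slope was -0.28 (SE 0.11, 95% interval -0.53 to -0.04, unadjusted p = 0.0282, adjusted p = 0.269). Psma6 was highest on control 2 (11.96) and penicillin 2 (11.93), which were low in Hspa8, and lowest on penicillin 1 (11.72) and control 5 (11.73). Over 12 arrays Pearson's r was -0.70 (permutation p = 0.0131, adjusted p = 0.206) and Spearman's rho -0.83 (permutation p = 0.00173, adjusted p = 0.143). Without the 2 arrays farthest from the median of Hspa8, control 5 and penicillin 6, r was -0.85. It was -0.95 in control (exact permutation p = 0.00417) and -0.57 in penicillin arrays (exact permutation p = 0.204), and the adjustment was over 11898 genes.

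The Psma6 relation rests on 1 probeset. With the mean of all Psma6 probesets its slope was 0.0050, but that mean takes in dim probesets, at 3.55 and 6.02. The next brightest Psma6 probeset (mean 11.50) correlated with the brightest at 0.37, and its own slope was not fitted.

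**Figure D3:**
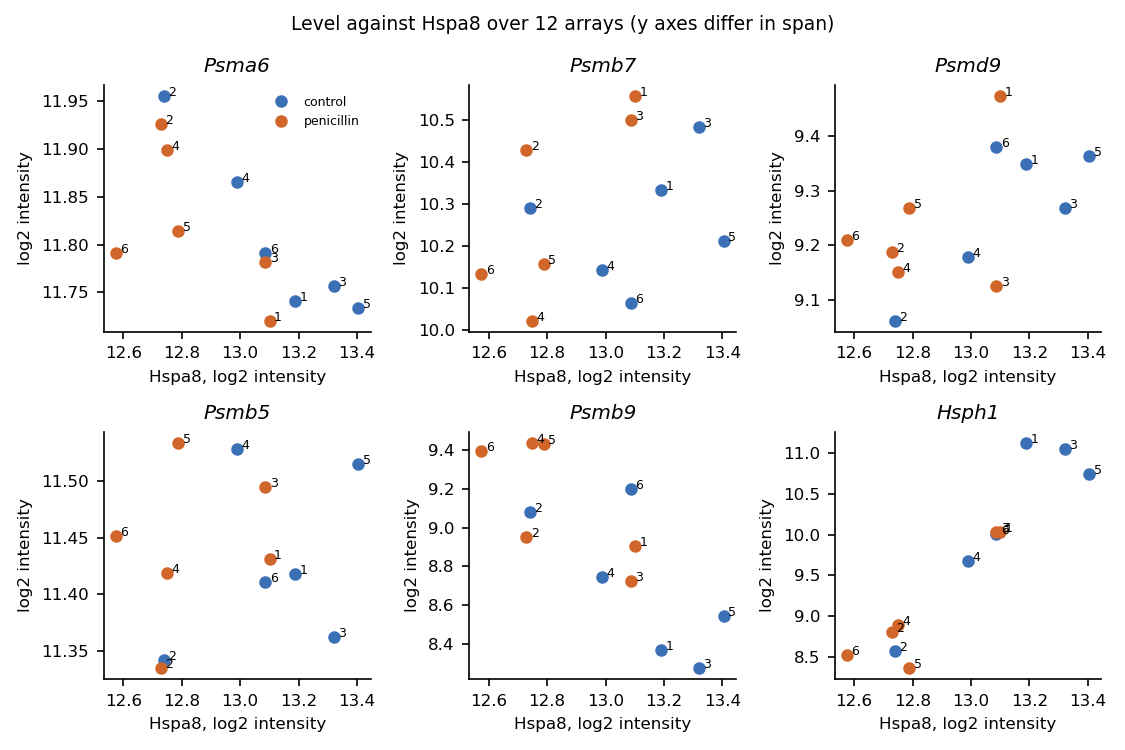
Log2 intensity of 6 genes against Hspa8 on the 12 arrays, numbered by replicate, control in blue and penicillin in orange; y axes differ in span. Pearson's r is -0.70 for Psma6, 0.36 for Psmb7, 0.57 for Psmd9, 0.17 for Psmb5, -0.81 for the inducible Psmb9 and 0.94 for Hsph1; of the 6 slopes that of Hsph1 alone passed in the limma fit.

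Other slopes were larger with larger errors. Psmb7 had 0.44 (SE 0.23, adjusted p = 0.372), Psmd9 0.34 (SE 0.16, adjusted p = 0.336) and Psmd4 0.33 (SE 0.21, adjusted p = 0.462). Psmd9 turned to -0.12 with the mean of its probesets. Psmb5 had 0.09 (SE 0.13) and Psmb6 0.12 (SE 0.12). Across members r ranged from -0.70 to 0.57 with a median of 0.04, and the median over all genes was -0.10. For 2 members r was below -0.5 and for 1 above 0.5, against 15.7% and 8.64% of all genes.

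The 4 inducible genes had negative slopes on Hspa8, and 0 passed. Psmb8, Psmb9, Psmb10 and Psme1 had slopes of -1.02 (SE 0.35), -1.11 (SE 0.32), -0.64 (SE 0.29) and -0.45 (SE 0.23). The smallest adjusted p was 0.147, and 3 of the 4 had an unadjusted p under 0.05, against 10.8% of all genes in that direction. Slopes were also negative for 6 of 6 Kupffer cell markers (1 with an unadjusted p under 0.05), 6 of 6 endothelial markers (3) and 5 of 5 stellate cell markers (3), and 0 of these passed. Their part in the inducible genes' slopes was not tested. For Psmb9, r was -0.81 over 12 arrays (permutation p = 0.00205, adjusted p = 0.123), Spearman's rho was -0.73 (permutation p = 0.00902, adjusted p = 0.195), and r was -0.78 without the 2 farthest arrays. Within the groups it was -0.70 in control (exact permutation p = 0.121) and -0.75 in penicillin arrays (exact permutation p = 0.124).

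The median SD of the 20S genes lay below that of genes at least as bright as the dimmest subunit, and the 19S median lay closer to it. The median SD over the 12 arrays was 0.081 for the 14 tested 20S genes and 0.116 for the 17 19S genes. It was 0.155 over all genes tested and 0.127 over the 3557 at least as bright as the dimmest subunit. That subunit was the lid gene Psmd13, at a mean of 8.75, whereas the dimmest tested 20S gene, Psmb7, had a mean of 10.28. Whether the smaller SD of the 20S genes goes beyond their brightness was not tested. Of the 31 subunits, 23 had an SD below that brightness-limited median and 27 below the median of all genes. Above the brightness-limited median lay the 20S genes Psma5 and Psmb7 and the 19S genes Psmc2, Psmc4, Psmd3, Psmd4, Psmd7 and Psmd11. The smallest SDs, 0.050 to 0.051, were among 20S genes and for the lid gene Psmd13, and the largest were 0.22 for Psmd11, 0.18 for Psmb7 and 0.17 for Psmc4.

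**Figure D4:**
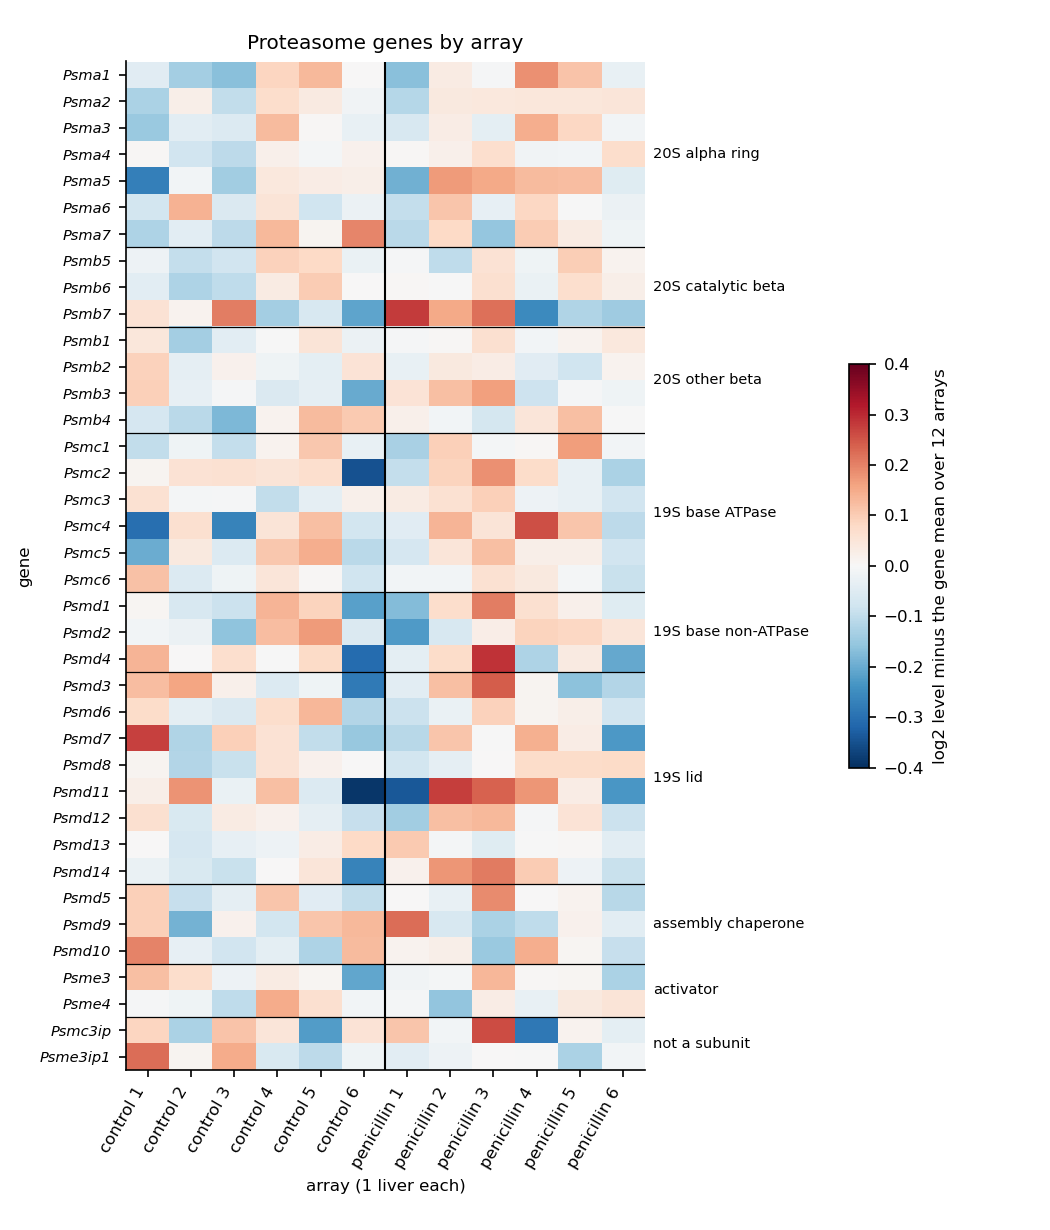
Each tested member's log2 level minus its own mean over the 12 arrays, genes ordered by role in rows and arrays in columns, with a line between control and penicillin. Control 6 and penicillin 1 and 6 are low and penicillin 3 is high across many 19S genes, and no role differs in colour between the groups throughout.

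Single arrays stood at the ends of many 19S genes. Control 6 was the lowest array for 7 of 17 19S genes, and penicillin 3 the highest for 7 of 17, whereas these arrays were lowest and highest for 9.11% and 7.48% of all genes. For Psmc2, an ATPase, control 6 stood at 10.93, and the other controls lay at 11.29 to 11.35. For Psmd4 it stood at 10.76 against 11.07 to 11.21, and for Psmd11 at 11.54 against 11.87 to 12.10. The mean deviation over the 17 19S genes was -0.14 on control 6, -0.09 on penicillin 6, -0.08 on penicillin 1 and 0.11 on penicillin 3. Over the 14 20S genes it lay between -0.06 and 0.05. The mean of the alpha genes was -0.11 on control 1, -0.10 on control 3 and penicillin 1, and 0.10 on penicillin 4. That of the 3 catalytic genes was 0.11 on penicillin 3 and -0.10 on penicillin 4. Of these 3, Psmb7 moved most, from 10.50 on penicillin 3 to 10.02 on penicillin 4. Psmb5 went from 11.495 to 11.42 and Psmb6 from 11.43 to 11.34. Control 6 and penicillin 1 and 6 were also high in Dbp (above), but so was penicillin 5, whose 19S mean was 0.02, and the part of the clock in these levels was not tested.

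Correlations between pairs of genes were higher within the alpha ring and within the 19S cap than over pairs of genes at large, given here as a description with no test. The median Pearson's r between pairs over the 12 arrays was 0.53 among the 7 alpha genes and 0.39 among the 17 19S genes (0.42 within the base, 0.41 within the lid). It was 0.23 among the 14 20S genes, 0.16 between 20S and 19S genes and -0.01 between alpha and beta genes. Over all pairs of genes at least as bright as the dimmest subunit it was 0.03. Within the control arrays the alpha and 19S medians were 0.57 and 0.33, and within the penicillin arrays 0.63 and 0.55. Without control 6 they were 0.58 and 0.36, and without controls 1, 3 and 5 they were 0.40 and 0.50. The median among all 20S genes was 0.28 in control and 0.09 in penicillin arrays, and 0.15 without controls 1, 3 and 5. All points share the array and its normalization.

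**Figure D5:**
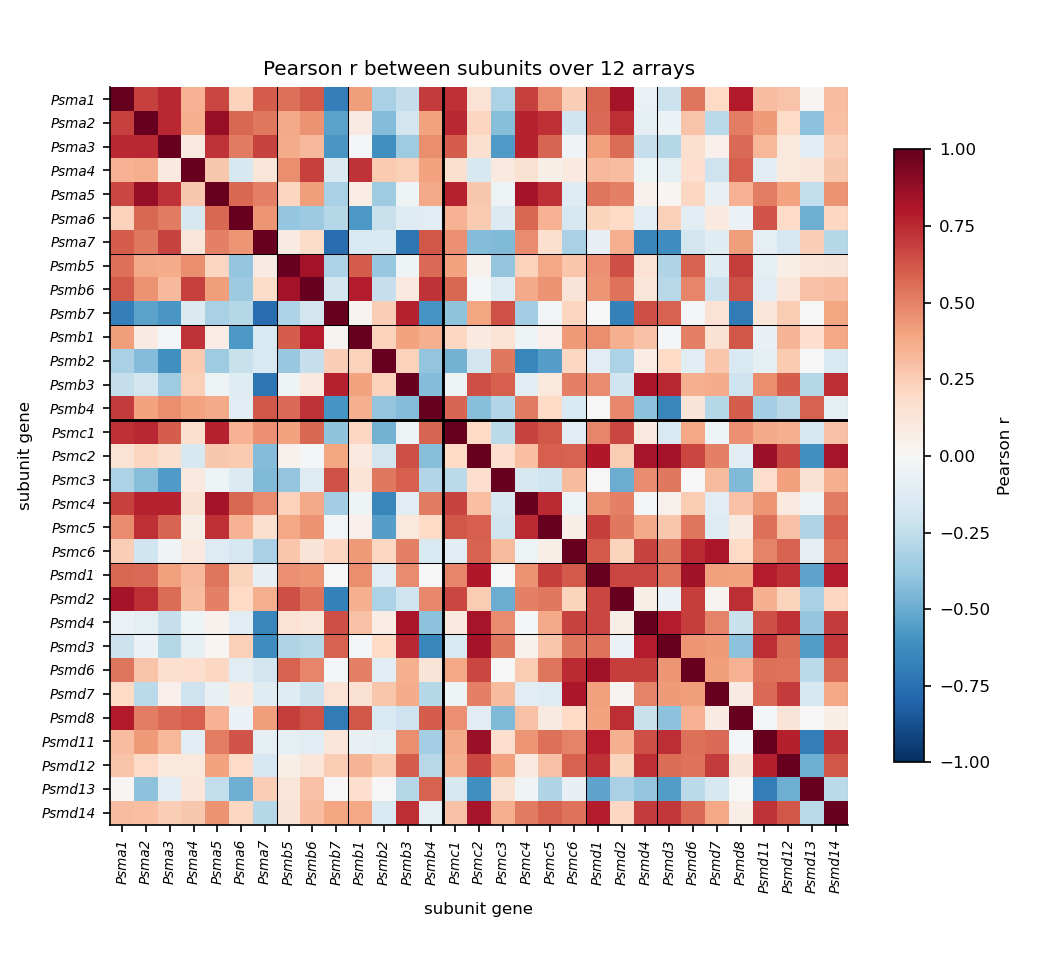
Pearson's r between each pair of the 31 tested 20S and 19S genes over the 12 arrays, genes ordered by role, thin lines between roles and a thick line between the 20S core and the 19S cap. The alpha block (median 0.53) and the 19S block (median 0.39) are mostly red, and Psmb7 and Psmd13 run against many of the other genes.

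The closest pairs were Psma2 with Psma5 (r 0.87), Psmc2 with Psmd11 (0.86) and Psmd1 with Psmd6 (0.84). The next 4, all at 0.83, were Psma1 with Psmd2 and Psma5 with Psmc4, which join the core to the cap, Psmc2 with Psmd3, and Psmb5 with Psmb6. Catalytic Psmb7 correlated with Psmb3 at 0.77 and with Psmd4 and Psmc3 at 0.64. With Psma7 it stood at -0.76, the lowest value among the 31 genes, and the median among the 3 catalytic pairs was -0.19. The Psma7 and Psmb7 pair stood at -0.92 in control and -0.69 in penicillin arrays. Psmb7 and Psmb3 split by replicate number in both groups (above), and Psma7 split the opposite way in control arrays. The part of that split in these correlations was not tested.

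Probesets of 1 gene did not always follow each other, which bounds what a single probeset says. For Psmd11, with 8 probesets, the next brightest correlated with the brightest at 0.97, and for Psma5 at 0.91, for Psmd4 at 0.90 and for Psmc2 at 0.86. For Psmc6 the other probesets above the filter correlated with the brightest at -0.45 and -0.58. These differed between groups by 0.08 and 0.16, against -0.01 for the brightest, and for Psmb3 the second probeset, at r -0.19, differed by 0.09 against 0.08. A dim Psmd13 probeset differed by 0.34, whereas the brightest differed by less than 0.01 (fitted value 0.0035).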

How the data were processed

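Liver RNA of 12 mice was measured on Affymetrix 3′ arrays, 6 per group as the labels give. The authors made the deposited probeset intensities with RMA, per the submitters' processing notes; its settings are not stated in the sources used here. Since RMA equalises the distributions of the arrays, a shift common to most genes is lost. The deposited intensity values were linear, and log2 was taken here, as the plan provided.

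Of 45037 probesets other than controls, 34945 had a single gene. Genes were read from their brightest probeset, and those with a mean under the median probeset (4.73) were left out. Levels were compared only within a probeset. Detection calls were not used here, and the number of arrays limits the precision.

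limma 3.58.1 in R 4.3.3 (lmFit and eBayes, two-sided) compared penicillin with control, and fitted the slope on Hspa8 with group as a term, over all tested genes with Benjamini-Hochberg adjustment at 0.05. Correlations had permutation p-values (100000 draws, exact within groups of 6) from Python 3.11.15 with numpy 2.4.6 and scipy 1.17.1. The fits were tested on simulated data. No batch was named in the labels. Any 2 arrays correlated at 0.980 or more over genes, and none was taken as a copy.

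Members, lists, tests and the arrays left out were chosen with earlier results of these data known. Values were given for the catalytic genes, for the 2 members of each role and list with the smallest p in the group fit, and for Hspa8, Nfe2l1, Pomp and the left-out genes. The 2 members of each role with the smallest p in the Hspa8 fit were followed over the settings, and only some of their slopes are printed. Other genes given only by their difference complete their role. Genes named for their spread, correlation or place on an array were chosen after their values were seen. Alternatives were other filters, normalizations, probeset summaries and variance settings, array weights, a replicate block, Hspa8 as a covariate, other measures in place of Hspa8, and arrays left out.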

Additional observations from a re-analysis of the deposited data

Results flagged for a closer look

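In 6 of 90 groups of 6 arrays (45 genes, each in both groups), 1 array lay far from the other 5, by the criterion of Dixon's test at its 95% critical value. Chance alone gives about 1 in 20 such groups. Control 6 held 3 of them: Psmc2 at 10.93 (others 11.29 to 11.35), Psmd4 at 10.76 (others 11.07 to 11.21) and, on the high side, the inducible Psmb10 at 10.16 (others 9.38 to 9.66). Penicillin 1 held a low level of the alpha gene Psma2 at 11.29 (others 11.44 to 11.45) and a high level of the lid gene Psmd13 at 8.854 (others 8.70 to 8.76). Penicillin 5 was low for Psme3ip1, which is not a subunit, at 8.442 (others 8.53 to 8.57).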

How the results depend on the processing

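With limma, 0 members passed under every alternative run, for the group difference (smallest adjusted p 0.517 to 0.996) and for the slope on Hspa8. Of 791 differences of named genes compared over 24 alternatives 36 changed sign, and of 493 slopes 31 did. The cause was not tested for any of them, and most such values lie near 0. Dim probesets cannot be told from background, which limits what Psmc3ip, Psma8 and Psmb11 show.

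Differences that changed sign were, for Psme3, 0.0090 with repeated quantile normalization, 0.0052 with median centring, 0.035 without controls 1, 3 and 5, 0.024 with Hspa8 as a covariate and 0.00075 without control 6 and penicillin 1, 5 and 6 (added after the data were seen). Psmd9 was 0.039 with the mean of all probesets, 0.029 without controls 1, 3 and 5 and 0.065 with the covariate. Psmb7 was -0.012 with array weights. Without controls 1, 3 and 5, Nfe2l1 was 0.0011, Psmb8 -0.046, Psmb10 -0.028, Psme1 -0.014 and Zfand2a 0.10. With the covariate, Nfe2l1 was 0.0059, Psmd11 -0.011 and Psmb8 -0.014. Without control 6 and penicillin 1, 5 and 6, Psmb5 was -0.017. Leaving out 1 array at a time gave -0.043 to 0.024 for Psme3, -0.0030 to 0.037 for Psmb5, -0.047 to 0.031 for Psmd2, -0.048 to 0.0035 for Psme4, -0.025 to 0.12 for Psmd11, -0.0060 to 0.10 for Psmb7 and -0.014 to 0.046 for Psmd5.

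The members' median slope was 0.118 with repeated quantile normalization, 0.010 with median centring, 0.017 without the group term, 0.020 in penicillin arrays alone and 0.025 with the other heat shock genes in place of Hspa8. With other Hspa8 probesets (added) it was 0.014 and 0.016, and with 1 array left out 0.0055 to 0.105. Slopes that changed sign were, for Psme4, 0.0078 (quantile), 0.14 (mean of probesets), 0.062 (without controls 1, 3 and 5), 0.020 (no group term), 0.040 (penicillin alone), 0.036 (without control 6 and penicillin 1, 5 and 6), 0.0035 (another Hspa8 probeset) and -0.058 to 0.046 (1 array left out). With the mean of probesets Psma6 was 0.0050, Psmc6 -0.20, Psmd2 0.053 and Psmd9 -0.12. Psmd2 was also 0.038 in control arrays alone, 0.036 without control 6 and penicillin 1, 5 and 6, and -0.28 to 0.022 with 1 array left out. Psmd14 was -0.044 without the group term, and Psme3 -0.059 in control arrays alone. With other Hspa8 probesets Psme3 was -0.0081, Psmb5 -0.016, Psmd2 0.027, Psmd13 -0.015 and Psmd9 -8.3e-05.

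The labels do not state whether same-numbered control and penicillin arrays form pairs. Their deviations correlated at 0.25, 0.32, 0.04, 0.31, -0.26 and 0.39, and 3 of 6 pairs matched best with their own number. Whether the mice were paired cannot be told from these values. With the replicate block 0 members passed in both fits, and the median difference was 0.023. The median slope was then -0.011, and the slopes of Psmb5 (-0.047), Psma7 (0.26), Psmb3 (-0.038), Psmc6 (-0.013), Psmd4 (-0.069), Psmd5 (-0.041) and Psme3 (-0.21) changed sign.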
